A study of Mus musculus with 16 samples.

Results

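Inguinal white fat of cold-housed mice was set against brown fat of mice that had never been cold, to see which genes of browned white fat reached, exceeded or stayed below their level in inactive brown fat. The 4 libraries of inguinal white adipose tissue from mice at 5 °C (WAT_5C) and the 4 of brown adipose tissue from mice at 30 °C (BAT_30C) make up this comparison, 8 of 16 libraries, and were chosen by tissue and housing temperature as titles and labels give them. All mice were labelled as female wild-type C57BL/6, 16 weeks of age, and reared at 30 °C, which is near thermoneutrality for mice, though 1 library goes against the sex label. The cold group left 30 °C when 10 to 12 weeks old and spent 2 weeks at 18 °C before its 3 weeks at 5 °C, the warm group remained at 30 °C, and food was taken away 2 to 3 h before collection. Polyadenylated RNA was sequenced to 55748148 to 71289020 counts per library. WAT_30C and BAT_5C, the other 2 groups of 4 libraries, served to choose gene sets on separate samples and as reference levels. Both tissue and temperature differ between WAT_5C and BAT_30C, so their shares in a difference cannot be told apart here.

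Brown adipocytes make heat by burning fatty acids in mitochondria whose inner membrane carries UCP1, a protein that lets protons flow back without making ATP. Noradrenaline from sympathetic nerves drives this through beta-adrenergic receptors and cyclic AMP, and at thermoneutrality the tissue keeps its brown identity but rests. In the cold, inguinal white fat gains UCP1-bearing beige adipocytes, which come from another lineage than the brown adipocytes of the back, and both kinds of fat cell also make new fatty acids.

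Levels are CPM, the counts of a gene per 1000000 counts of its library after TMM scaling of the library size, and differences are log2 ratios of WAT_5C over BAT_30C from the edgeR quasi-likelihood F-test with Benjamini-Hochberg adjustment over all genes tested. A gene is called higher or lower in WAT_5C at an adjusted p under 0.05. A gene that missed this is called within 2-fold only where the 95% interval of its log2 ratio lay between -1 and 1, and otherwise not told apart. Statements that groups do not overlap describe the libraries of the named genes and are no added support for a call. The share of all genes without overlap is not given here. In bulk tissue, fewer cells of a type and less RNA per cell cannot be told apart.

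Titles were checked against markers of tissue position. Zic1, a developmental regulator that marks dorsal brown fat, was at 10.4 to 13.2 CPM in BAT_30C and at most 0.128 CPM in WAT_5C, while Hoxc10, a gene of posterior position, was at 9.52 to 24.0 CPM in WAT_5C and had 0 counts in BAT_30C. These levels fit the tissues in the titles and go against the tissue label of BAT_30C, which names an inguinal depot. A source label of BAT_30C replicates 3 and 4 names cold, against their titles and housing. Fasn took 0.224 and 0.188% of their counts, 0.381 and 0.162% in replicates 1 and 2, and 4.09 to 4.62% in BAT_5C. Mitochondrially encoded transcripts took 26.2 and 26.3% of their counts, 24.2 and 26.8% in replicates 1 and 2, and 17.6 to 19.4% in BAT_5C. These levels go with their titles. Leaving both libraries out also makes the group smaller. WAT_5C replicate 1 stood apart from the rest. Xist, the RNA of the inactive X chromosome, had 3 counts in it and 26602 to 68464 in each of the remaining 7. Y-linked genes had 17183 counts in it and at most 30 elsewhere among the 8, so it goes against its female label. Mammary epithelium markers had a geometric mean of 0.363 CPM in it against 12.3 to 15.7 CPM in the other 3 WAT_5C libraries. T and NK cell markers were at 10.1 CPM against 35.9 to 42.4, and adipocyte markers at 1608 CPM against 461 to 746, with 1294 to 1603 CPM in BAT_30C. Mitochondrially encoded transcripts took 9.59% of its counts, 4.04 to 5.66% in the other WAT_5C libraries and 24.2 to 26.8% in BAT_30C. The main results are therefore also given without this library.

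Of 17552 genes tested, 5066 (28.9%) were higher and 4731 (27.0%) lower in WAT_5C, 5105 (29.1%) lay within 2-fold, and 2650 were not told apart, around a median log2 ratio of 0.02. Without WAT_5C replicate 1, 6496 of 18182 genes (35.7%) were higher, 6176 (34.0%) lower and 3829 (21.1%) within 2-fold. These shares are the background for the list counts that follow. The balance of calls depends on scaling. With library totals, 8996 were higher and 2192 lower with an all-gene median of 0.55, and with sizes set by 10 adipocyte markers (adipocyte scaling) 8322 were higher and 866 lower with a median of 0.97. The higher share of called genes thus went from 51.7% to 80.4% and 90.6%.

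To place cold white fat beside resting brown fat, brown-side genes were chosen on libraries outside the comparison. They are genes at least 4-fold higher in BAT_5C than in WAT_30C with at least 5 CPM in BAT_5C. This rule took 1138 of 18122 genes (6.28%). Of the 1132 that were tested in the comparison, 770 stayed below thermoneutral brown fat, 113 lay within 2-fold, 81 were above it and 168 were not told apart, with a median log2 ratio of -1.21. Without replicate 1, 933 of 1133 were lower, 74 within 2-fold and 86 higher, and the median was -1.48. Lower calls thus covered 68.0% of the brown-side genes, or 82.3% without that library, beside 27.0% and 34.0% of all genes. BAT_5C and WAT_30C differ in both tissue and temperature, so the set can hold genes of brown fat and genes raised in the cold alike. Genes low in BAT_5C are left out. A set chosen as higher in a brown than in a white group can be richer in lower calls by that choice. How far WAT_5C had moved from WAT_30C was not measured. The opposite, white-side set of 1552 genes (8.56%) had 1390 higher, 13 lower and 22 within 2-fold of 1524 tested, with a median of 2.73. Without replicate 1 these counts were 1469, 22 and 26 of 1552, with a median of 3.02.

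**Figure D1:**
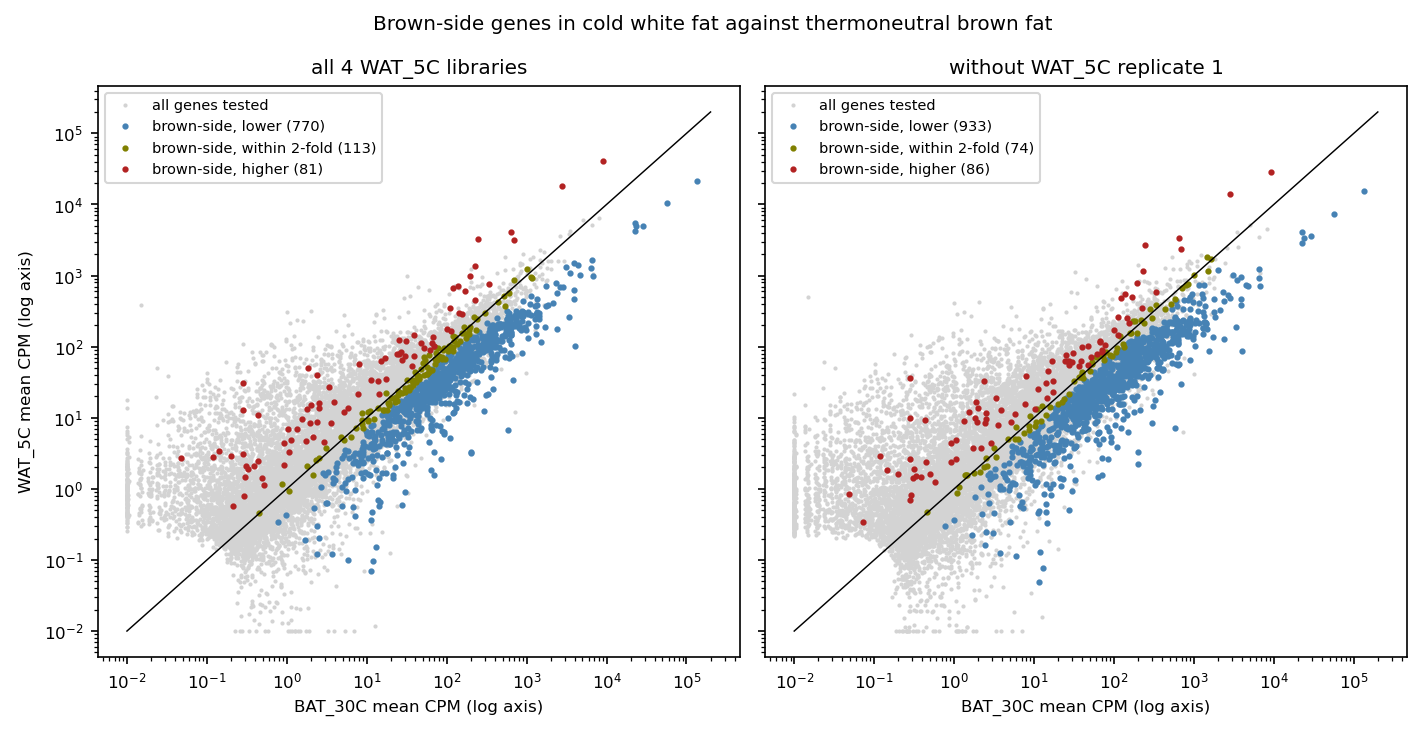
Mean level of each gene in BAT_30C (horizontal) and WAT_5C (vertical), both in CPM on log axes, with 0.01 CPM as the lowest value drawn, for all 8 libraries (left) and without WAT_5C replicate 1 (right). Coloured points are brown-side genes that were lower, within 2-fold or higher, brown-side genes not told apart stay grey, and the line marks equal levels: 770 of 1132 brown-side genes were lower on the left and 933 of 1133 on the right.

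The 8 brown-side genes furthest below thermoneutral brown fat by the naming rule were Zic1, Fabp3, Slc27a2, Mapt, Cabcoco1, Dlk1, Kng2 and Coq8a, with log2 ratios from -7.39 to -5.29. Mapt, which encodes the microtubule protein tau, was at 6.29, 1.62, 2.84 and 2.24 CPM in WAT_5C replicates 1 to 4 and at 142, 206, 237 and 217 CPM in BAT_30C. Coq8a, a mitochondrial factor of coenzyme Q synthesis, was at 151, 54.2, 118 and 86.3 CPM against 3197, 4442, 4067 and 4273 CPM. Dlk1, an inhibitor of adipocyte differentiation, was at 0.394 to 0.848 CPM against 21.4 to 31.7 CPM. The naming rule takes only genes whose groups do not overlap, so the separation of these 3 was set by the rule. Kng2, a kininogen gene, shares 20.1% of its 50-base windows with Kng1, so its counts are less certain.

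The 8 brown-side genes furthest above were Elovl3, Hephl1, Scd3, Adcy10, Slc2a5, Me1, Marc1 and Rims4. Elovl3 (ENSMUSG00000038754), which elongates very long chain fatty acids, had 15.5, 6.32, 66.7 and 35.3 CPM in WAT_5C and 0.0184, 0.590, 0.0606 and 0.469 CPM in BAT_30C. All 4 white fat libraries were above all 4 brown ones, which the naming rule requires of these 8 genes. The log2 ratio of Elovl3 was 6.76 ± 1.07 (SE, adjusted p = 0.000968). Its mean was 0.202 CPM in WAT_30C, 30.9 CPM in WAT_5C and 784 CPM in BAT_5C. WAT_5C was tested only against BAT_30C, and BAT_5C against WAT_30C only to choose the brown-side set. Hephl1, a copper-dependent oxidase, was at 22.0, 9.54, 9.55 and 11 CPM against 0.0606 to 0.478 CPM. Slc2a5, the fructose transporter, was at 22.3 to 61.1 CPM against 0.941 to 3.24 CPM, and Adcy10, the soluble adenylyl cyclase, at 5.58 to 15 CPM against 0.240 to 0.554 CPM. Replicate 1 had the highest level in WAT_5C for all 8 except Elovl3, and all 8 remained higher without it, Scd3 with its log2 ratio going from 4.76 to 3.17. Scd3 shares 6.91% of its windows with other genes.

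Most thermogenic genes were below thermoneutral brown fat. Of 24 members tested, 21 (87.5%) were lower in WAT_5C, beside 27.0% of all genes. Elovl3 alone was higher, Adrb3 lay within 2-fold and Acot11 was not told apart, with a median log2 ratio of -2.80 beside 0.02 for all genes. Without replicate 1, 21 were lower, beside 34.0% of all genes, 1 was higher and 2 were not told apart, with a median of -2.88. Lower calls numbered 19 with library totals (median -2.38) and 14 with adipocyte scaling (median -2.05), where 2 were higher, beside 12.4% and 4.96% of all genes lower. They numbered 14 at a threshold of 0.01, 16 under the replicate block and 15 of 25 without the BAT_30C libraries whose source label names cold.

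Ucp1 (ENSMUSG00000031710) was at 67.2, 6.23, 404 and 132 CPM in WAT_5C replicates 1 to 4 and at 631, 2014, 758 and 1856 CPM in BAT_30C. The highest white fat library remained under the lowest brown one, and WAT_5C replicate 2 was far below its own group. The mean was 11.6% of that in BAT_30C, a log2 ratio of -3.11 ± 1.04 (SE, adjusted p = 0.0318), or -2.86 without replicate 1 (adjusted p = 0.0435). This call was lost without WAT_5C replicate 4 (adjusted p = 0.0783), without BAT_30C replicate 2 (0.0711) or 4 (0.0673), and without the BAT_30C libraries whose source label names cold (0.105). It was also lost with library totals (0.0532) and adipocyte scaling (0.0528), where the log2 ratios were -2.54 and -2.14. For reference, Ucp1 averaged 0.181 CPM in WAT_30C and 12742 CPM in BAT_5C.

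Cidea (ENSMUSG00000024526), a lipid droplet protein of brown fat, was at 208, 21.3, 163 and 77.3 CPM against 1160, 1621, 1482 and 1836 CPM, a log2 ratio of -3.70 ± 0.64 (SE, adjusted p = 0.00148). Replicate 2 was again lowest, and no library of one group reached the other. The cytochrome oxidase subunit gene Cox8b was at 159, 26.0, 77.2 and 63.2 CPM against 589 to 683 CPM, and its partner Cox7a1 at 38.7, 3.17, 26.9 and 14 CPM against 288 to 323 CPM. Kcnk3, a potassium channel, was at 15.8% of the BAT_30C mean, the proton channel gene Otop1 at 25.8% and Letmd1, of a mitochondrial inner membrane protein, at 18.9%. All 5 were lower, with log2 ratios from -3.90 to -1.96, and none overlapped between groups. The Otop1 call was lost without WAT_5C replicate 4 (adjusted p = 0.0535) and without the BAT_30C libraries labelled cold (0.0893).

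Members of the list that serve fatty acid handling and its control were lower too. Fabp3, which binds fatty acids in the cytosol, was at 5.57, 0.395, 16.4 and 4.88 CPM against 400, 691, 538 and 705 CPM, a log2 ratio of -6.42 ± 0.99 (SE, adjusted p = 0.000859). Slc27a2, a very long chain acyl-CoA synthetase, was at 2.66, 0.406, 7.56 and 2.07 CPM against 92.3 to 283 CPM. Replicate 3 was the highest white fat library for both. Ppara, the nuclear receptor of fatty acid oxidation genes, was at 4.20% of the BAT_30C mean, Plin5, which ties droplets to mitochondria, at 8.82%, and Esrrg, an oestrogen-related receptor, at 11.5%. Pank1, which makes coenzyme A, was at 6.75% and the coactivator gene Ppargc1a at 20.0%. Fabp3 shares 37.2% of its windows with a pseudogene and neighbours, which makes its counts uncertain.

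Dio2, which makes active thyroid hormone, was at 4.67, 2.85, 12.2 and 5.93 CPM against 15.2, 23.6, 5.13 and 50.1 CPM. The groups overlapped, since BAT_30C replicate 3 was under 2 white fat libraries, and the log2 ratio was -1.87 ± 0.68 (SE, adjusted p = 0.0440). The call was lost without WAT_5C replicate 1 (adjusted p = 0.0605), 2 (0.0979) or 4 (0.0970), or without BAT_30C replicate 1 (0.0545), 2 (0.0801) or 4 (0.140), or without both libraries labelled cold (0.0633). Over all 22 alternatives the log2 ratio of Dio2 ran from -2.39 to -0.62, with adjusted p up to 0.252. Gk, the glycerol kinase gene, was at 8.08 to 20.9 CPM against 25.0 to 65.0 CPM, a log2 ratio of -1.39 (adjusted p = 0.0145). The Gk call was lost with adipocyte scaling (-0.55, adjusted p = 0.222), under the replicate block (0.0526) and without the BAT_30C libraries labelled cold (0.0551). Acot11, an acyl-CoA thioesterase, was at 71.5, 9.32, 85.3 and 40.7 CPM against 36.4 to 60.6 CPM. Its log2 ratio of 0.10 had an interval of -1.15 to 1.35, too wide to place it, while in BAT_5C it averaged 1918 CPM. Acot11 shares 19% of its windows with Fam151a on the other strand.

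Adrb3, the beta-3 adrenergic receptor that starts the response, was at 656, 172, 217 and 247 CPM in WAT_5C and at 290, 328, 325 and 274 CPM in BAT_30C. The within 2-fold class (log2 ratio 0.09, interval -0.82 to 0.99) rested on replicate 1. Without it the other 3 white fat libraries were all below the brown ones, at a log2 ratio of -0.52 (adjusted p = 0.00715). With adipocyte scaling Adrb3 was higher, at 0.73.

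**Figure D2:**
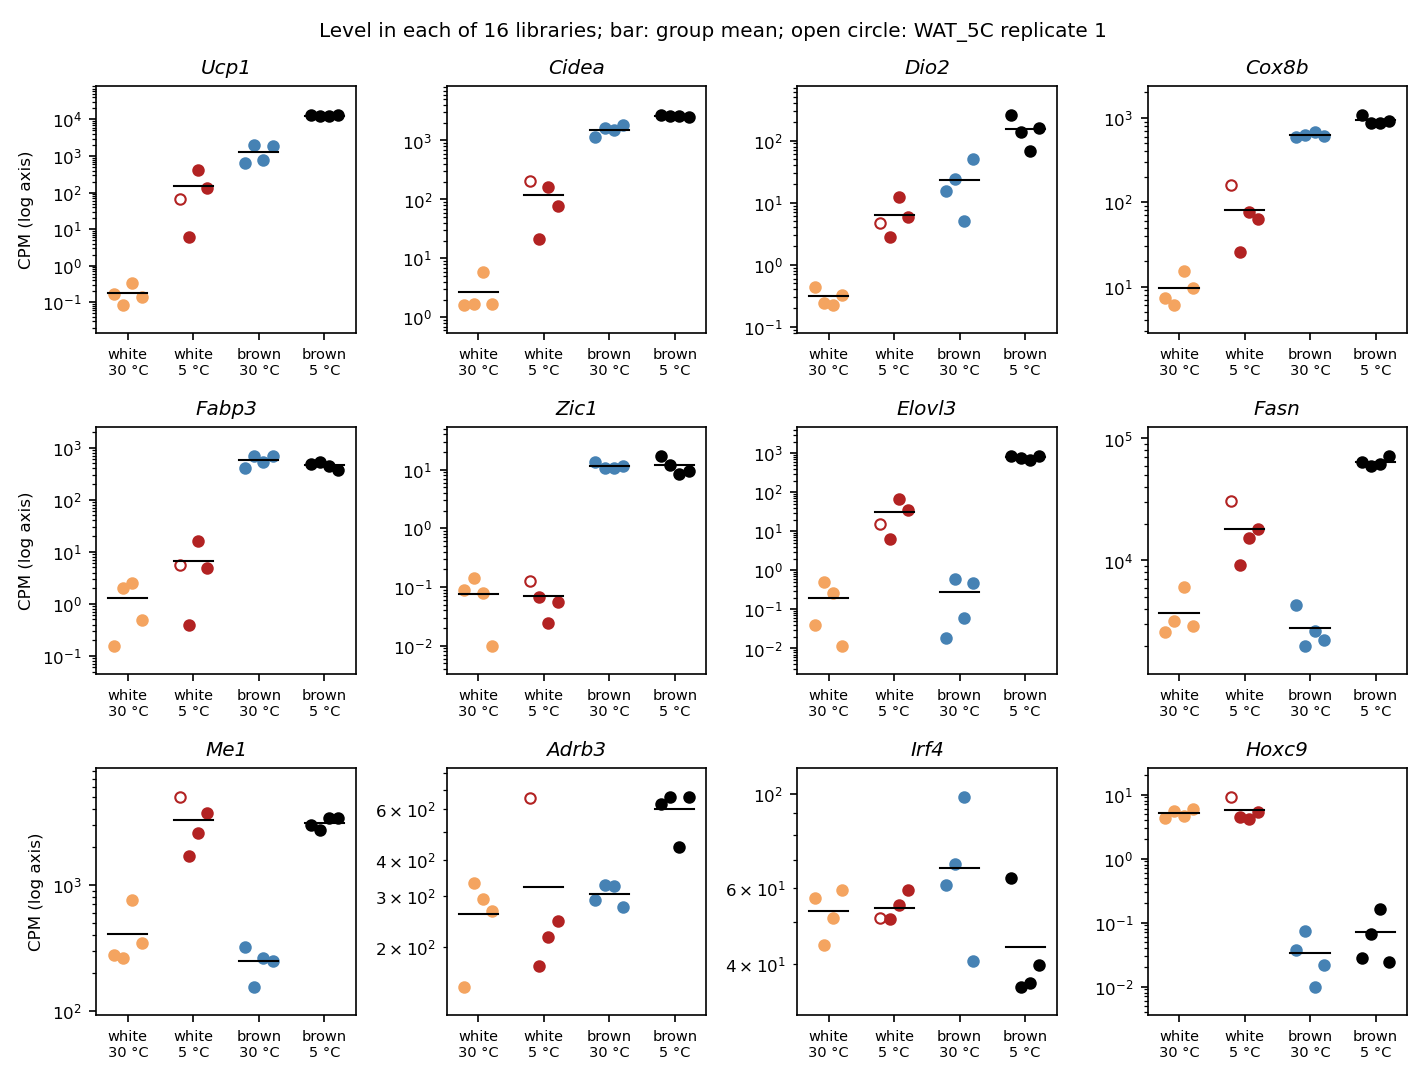
Level of 12 genes in each of the 16 libraries in CPM on log axes, by tissue and temperature, with 0 drawn at 0.01 CPM. Points are libraries, bars group means and the open circle WAT_5C replicate 1: Ucp1, Cidea, Cox8b, Fabp3 and Zic1 of WAT_5C lie under BAT_30C in every library, Elovl3, Fasn, Me1 and Hoxc9 lie above it, and Dio2, Adrb3 and Irf4 overlap.

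WAT_5C libraries differed among themselves by more than BAT_30C libraries in these genes. The median over the thermogenic members of the SD of log2 CPM was 0.89 in WAT_5C, 0.84 without replicate 1 and 0.38 in BAT_30C, beside 0.25, 0.13 and 0.15 over all genes. With each gene put as a percent of its BAT_30C mean, the list median was 22.7%, 5.75%, 18.9% and 13.8% in WAT_5C replicates 1 to 4. It was 2.07 to 3.64% in WAT_30C and 160 to 196% in BAT_5C. Replicate 2 was the lowest of WAT_5C for the thermogenic, fatty acid oxidation, complex I and glycolysis lists, and was above every WAT_30C library in the first 3 of them.

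The promoters of Ucp1, Dio2 and Fasn are shown because these genes lay on opposite sides of the comparison and are textbook targets of cyclic AMP or of lipogenic control. They are the 250 bases before the RefSeq start (GRCm38.p6), on the gene's strand, with capitals marking TGACG for Ucp1 at chr8:83290098-83290347 (+), TGACGTCA for Dio2 at chr12:90739039-90739288 (-), and CCAAT or its reverse for Fasn at chr11:120824548-120824797 (-).
Ucp1: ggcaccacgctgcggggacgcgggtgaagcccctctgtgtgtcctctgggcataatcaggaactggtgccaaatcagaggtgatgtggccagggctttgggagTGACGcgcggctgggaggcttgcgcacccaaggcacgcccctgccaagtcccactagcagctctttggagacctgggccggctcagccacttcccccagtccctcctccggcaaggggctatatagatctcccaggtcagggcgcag
Dio2: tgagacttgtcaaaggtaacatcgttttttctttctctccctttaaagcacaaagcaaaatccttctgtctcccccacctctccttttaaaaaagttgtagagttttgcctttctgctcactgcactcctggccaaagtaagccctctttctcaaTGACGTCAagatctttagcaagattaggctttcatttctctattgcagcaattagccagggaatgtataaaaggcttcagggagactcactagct
Fasn: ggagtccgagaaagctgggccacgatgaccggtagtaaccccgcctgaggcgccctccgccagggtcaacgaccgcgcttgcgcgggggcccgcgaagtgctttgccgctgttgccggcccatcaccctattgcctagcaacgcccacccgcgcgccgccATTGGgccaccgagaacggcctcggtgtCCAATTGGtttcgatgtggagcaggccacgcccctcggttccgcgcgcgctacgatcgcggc

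The cAMP response element TGACGTCA, on either strand, was in 1.55% of 32851 RefSeq promoter windows of this length, and the shorter TGACG, which lies within it, in 17.8%. Lists were matched to 26 windows of 19 of the 25 thermogenic genes, 22 of 17 of 20 lipogenic genes, 34 of 32 of 36 complex I genes and 19 of 16 of 22 cholesterol genes. In that order TGACGTCA was in 3.85%, 4.55%, 8.82% and 0% of them, and TGACG in 23.1%, 9.09%, 41.2% and 36.8%. The CCAAT box was in 33.8% of all windows and in 30.8%, 54.5%, 29.4% and 84.2% of the lists' windows. The E-box CACGTG was in 6.02% of all windows and in 11.5%, 13.6%, 8.82% and 21.1% of theirs. These matches describe letters and were not tested against the expression values.

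Genes of brown lineage were mostly below. Of 17 tested, 13 (76.5%) were lower, beside 27.0% of all genes, with a median of -1.52. Epsti1 was higher, and Ehmt1, Irf4 and Zfp516 lay within 2-fold. Without replicate 1 the counts were identical, beside 34.0% of all genes lower, with a median of -1.71. Zic1 (ENSMUSG00000032368) was at 0.128, 0.0677, 0.0241 and 0.0564 CPM against 13.2, 10.4, 10.8 and 11.4 CPM, a log2 ratio of -7.39 ± 0.40 (SE, adjusted p = 1.70e-05). Its mean in WAT_30C was 0.0769 CPM and in BAT_5C 11.7 CPM. Ebf2, which opens brown fat enhancers, was at 14.2 to 36.6 CPM against 105 to 153 CPM. Prdm16, which holds brown over muscle identity, was at 7.58 to 19.0 CPM against 25.5 to 51.0 CPM (call lost with adipocyte scaling, adjusted p = 0.0549), and Lhx8, a LIM homeobox gene, at 1.53 to 3.10 CPM against 5.72 to 22.2 CPM. None of these overlapped.

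The coactivator gene Ppargc1b was at 16.3, 6.96, 9.13 and 7.63 CPM against 108, 109, 83.3 and 116 CPM, and Pdk4, a kinase that shuts pyruvate out of oxidation, at 463, 87.9, 339 and 141 CPM against 2415 to 4151 CPM. Both were lower without overlap. Irf4 and Zfp516, transcription factors of the thermogenic response, and Ehmt1, a histone methyltransferase bound by PRDM16, had log2 ratios of -0.31, -0.00 and -0.04. Ehmt1 was at 52.1 to 56.6 CPM against 50.8 to 59.6 CPM, with the groups interleaved. The 3 log2 ratios turned positive with library totals (0.22, 0.52 and 0.50) and with adipocyte scaling (0.65, 0.96 and 0.94). Calls in the brown lineage list changed too, with 3 higher and 12 lower with library totals, and 3 higher and 7 lower with adipocyte scaling. Epsti1, listed as a brown fat marker, was 4.54 higher in log2 terms, at 23.7, 93.0, 102 and 83.1 CPM against 2.89 to 3.76 CPM, and averaged 121 CPM in WAT_30C.

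Hox and related genes keep a record of position along the body axis. Of 31 Hox and position genes tested, 13 were higher, 10 lower and 5 within 2-fold, beside 28.9% higher and 27.0% lower over all genes, and without replicate 1 the counts were 13, 10 and 7. Hoxc9 was at 9.30, 4.40, 4.13 and 5.38 CPM against at most 0.0738 CPM, and Hoxc10 was at least 885-fold higher, as BAT_30C had 0 counts. Hoxc10 shares 6.45% of its windows with Hoxc5. Hoxa4 and Hoxa5, of more anterior position, were lower, at 0.981 to 2.11 against 10.5 to 16.0 CPM and at 2.44 to 3.92 against 20.4 to 27.4 CPM. Tbx5, of the forelimb level, was at 1.15 to 1.53 CPM against 14.8 to 25.1 CPM, and Zic4, the neighbour of Zic1, had 1 count in all of WAT_5C against 796, a ratio of 0.000797 with an exact 95% interval of 2.02e-05 to 0.00446. Hoxb13, of the most posterior Hox group and too low to be tested, went against the direction of Hoxc10, with 1 count in WAT_5C and 27 in BAT_30C, a ratio of 0.0235 (interval 0.000574 to 0.143).

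Beige marker genes were mostly above brown fat. Of 13 tested, 9 were higher, P2rx5 and Slc36a2 were lower, Klhl13 lay within 2-fold and Car4 was not told apart, with a median of 3.14 against 28.9% higher calls over all genes. Without replicate 1, 9 were higher and 4 lower. The list includes the position gene Hoxc9, and the part of tissue position or immune cells in these counts was not tested. Tmem26, a surface protein, was at 2.54, 4.03, 2.85 and 2.81 CPM against 0.0184 to 0.0808 CPM, Tnfrsf9, which encodes CD137, at 2.14 to 5.18 against 0.303 to 0.404 CPM, and the T-box gene Tbx1 at 1.65 to 2.32 against 0.0184 to 0.107 CPM. All 3 were separated between groups. Their means in WAT_30C, 3.96, 6.65 and 2.27 CPM, were each above the WAT_5C mean, a difference that was not tested here. P2rx5, a purinergic receptor, was at 30.9, 8.68, 11 and 13.4 CPM against 91.4 to 115 CPM. Slc36a2, an amino acid transporter, was at 177 to 414 CPM against 623 to 813 CPM. Car4, a carbonic anhydrase, was at 63.3 CPM in replicate 1 and 10.7 to 18.9 CPM in the others, against 55.3 to 73.0 CPM, and was lower without that library (-1.96, adjusted p = 3.14e-05).

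White fat markers gave no uniform picture. Of 16 tested, 8 (50%) were higher, 2 (12.5%) lower and 6 not told apart with a median of 0.96, beside 28.9% higher and 27.0% lower over all genes. Without replicate 1 these counts were 8 (50%), 5 (31%) and 1, beside 35.7% and 34.0% of all genes. There 2 lay within 2-fold and the median was 0.44. Retn, which encodes resistin, was at 1139, 448, 609 and 665 CPM against 94.7 to 197 CPM. Lep, which encodes leptin, was at 203, 58.9, 13.3 and 58.5 CPM against 223, 91.1, 132 and 110 CPM, so the groups overlapped through replicate 1. Its log2 ratio was -0.74 (interval -2.31 to 0.84), and -1.67 without that library (adjusted p = 0.0175). Nnat, an imprinted gene used as a white fat marker, was at 29.2, 13.2, 2.25 and 3.54 CPM against 546 to 908 CPM, against the name of its list. It averaged 258 CPM in WAT_30C and 3.82 CPM in BAT_5C. Adipoq, which encodes adiponectin, was at 1810 CPM in replicate 1 and 711 to 838 CPM in the other 3, against 1479 to 1606 CPM.

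Most genes of new fatty acid synthesis were above resting brown fat. Of 20 genes, 13 (65%) were higher, beside 28.9% of all genes, with a median of 1.29. Mlxipl was lower, 2 lay within 2-fold and 4 were not told apart. Without replicate 1 the counts were 13 higher (65%, beside 35.7% of all genes) and 2 lower with a median of 1.03. Without the BAT_30C libraries labelled cold 9 were higher. Fasn (ENSMUSG00000025153), which builds palmitate, was at 30463, 9258, 15169 and 18117 CPM against 4324, 2005, 2643 and 2234 CPM. Every white fat library was above every brown one, at a log2 ratio of 2.70 ± 0.49 (SE, adjusted p = 0.00185), or 2.34 without replicate 1. The call missed the threshold without the 2 BAT_30C libraries whose source label names cold (adjusted p = 0.0567). In BAT_5C the mean was 64612 CPM and in WAT_30C 3695 CPM.

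Me1, the malic enzyme that supplies NADPH, was at 5043, 1690, 2570 and 3756 CPM against 156 to 323 CPM, a log2 ratio of 3.73 ± 0.41 (SE, adjusted p = 0.000171). Its WAT_5C mean of 3265 CPM was beside 3130 CPM in BAT_5C, a difference that was not tested here. Acly, which splits citrate into acetyl-CoA, was at 2078 to 6385 CPM against 547 to 791 CPM, and Acss2, which makes it from acetate, at 406 to 1181 CPM against 112 to 169 CPM. The elongase gene Elovl6 was at 719 to 2008 CPM against 191 to 258 CPM. Scd1, the delta-9 desaturase, was at 79649 CPM in replicate 1 and 20986 to 34931 CPM in the other 3, against 8027 to 10586 CPM, and its call (adjusted p = 0.00975) was lost without the BAT_30C libraries labelled cold (0.135). Replicate 1 was the highest library for each of these genes. Me1 shares 35.2% of its windows with other genes.

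A pair of regulators and the mitochondrial carboxylase were not called higher. Srebf1, a transcription factor of lipid synthesis, was at 281 to 566 CPM against 232 to 465 CPM, with a log2 ratio of 0.38 (interval -0.31 to 1.08). Mlxipl, which encodes the glucose-sensing factor ChREBP, was at 175 to 353 CPM against 378 to 494 CPM, a log2 ratio of -0.74 (adjusted p = 0.0188) that was 0.07 with adipocyte scaling. The Mlxipl call was lost without BAT_30C replicate 1 (adjusted p = 0.0512) or WAT_5C replicate 3 (0.0571), without the BAT_30C libraries labelled cold (0.0757), and with library totals (-0.27, 0.143). Acacb, the carboxylase whose malonyl-CoA restrains mitochondrial fatty acid entry, was at 1068, 305, 568 and 618 CPM against 677 to 1046 CPM. Its log2 ratio of -0.48 had an interval of -1.28 to 0.32, and it was lower without replicate 1 (-0.85, adjusted p = 0.0163), with adipocyte scaling turning it to 0.24.

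Cholesterol synthesis genes were above brown fat in part, with 12 of 22 (54.5%) higher, 2 lower and 7 within 2-fold (median 0.66). Without replicate 1 the counts were 12, 3 and 7 (median 0.55). Over all genes 28.9% were higher, and 35.7% without that library. Without the BAT_30C libraries labelled cold 7 were higher, and 8 at a threshold of 0.01. Sqle, the squalene epoxidase, was at 39.4 to 46.3 CPM against 8.69 to 17.8 CPM, and Mvd, of the mevalonate steps, at 19.7 to 27.5 CPM against 5.09 to 9.37 CPM. Hmgcs1, at the start of the path, was at 264, 151, 141 and 168 CPM against 245 to 470 CPM, overlapping through replicate 1, and its log2 ratio of -0.94 (adjusted p = 0.0159) was -0.08 with adipocyte scaling, and the call was lost with library totals too (adjusted p = 0.0658). Fdft1, which makes squalene, was at 47.6 to 78.1 CPM against 83.9 to 111 CPM, and its log2 ratio of -0.78 (adjusted p = 0.00561) turned to 0.09 with that scaling and missed the threshold without the libraries labelled cold (adjusted p = 0.0579). Fdft1 shares 32.9% and Hmgcs1 16.5% of windows with other genes. The list median by library was 234%, 143%, 140% and 154% of the BAT_30C mean in WAT_5C and 85.8 to 116% in the BAT_30C libraries, and for lipogenesis in WAT_5C it was 406%, 184%, 211% and 253%.

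**Figure D3:**
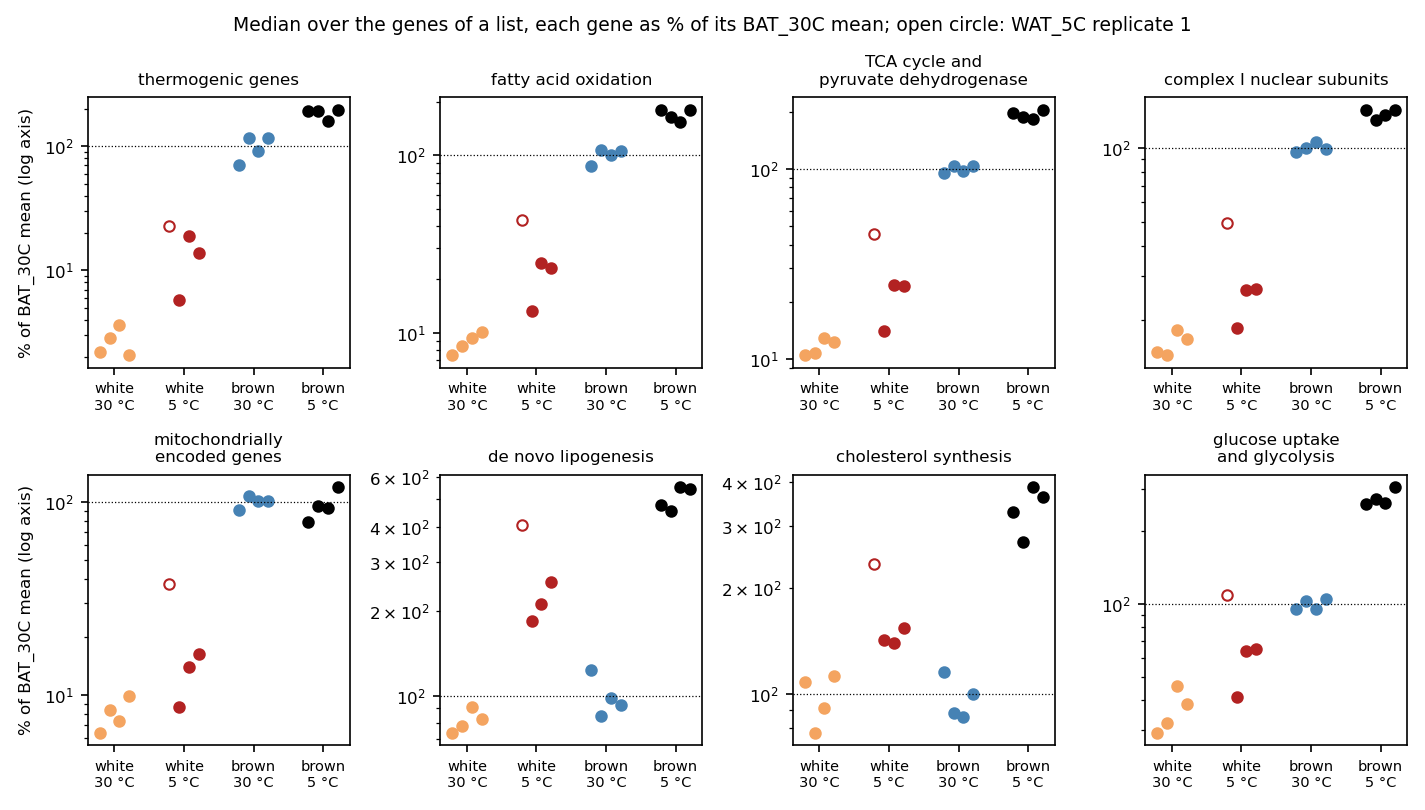
Median over the genes of 8 lists in each library, each gene as a percent of its BAT_30C mean (log axes, dotted line at 100%). Points are libraries and the open circle is WAT_5C replicate 1: WAT_5C thermogenic medians run from 5.75 to 22.7% and complex I from 18.5 to 49.5%, under every BAT_30C library, while lipogenesis runs from 184 to 406%, above every BAT_30C library.

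Glucose uptake and glycolysis genes depended on replicate 1. Of 21, 2 (9.5%) were higher, 4 (19.0%) lower, 4 within 2-fold and 11 not told apart, with a median of -0.52. Both shares were under those of all genes, 28.9% and 27.0%. Without that library 4 (19.0%) were higher and 12 (57.1%) lower, beside 35.7% and 34.0% of all genes, with a median of -0.85. Slc2a4, the insulin-regulated transporter, was at 410, 132, 167 and 218 CPM against 360 to 402 CPM, and Pfkl, a phosphofructokinase, at 307, 108, 218 and 210 CPM against 269 to 323 CPM. Their log2 ratios of -0.70 (interval -1.43 to 0.04) and -0.52 (interval -1.15 to 0.10) were -1.13 and -0.76 without replicate 1, both then called lower, and 0.01 and 0.26 with adipocyte scaling. Slc2a1, the basal transporter, was higher, at 18.3 to 34.2 CPM against 9.48 to 12.4 CPM. Ldhb, a lactate dehydrogenase subunit, was lower, at 33.2 to 125 CPM against 589 to 706 CPM, and shares 16.8% of its windows with a further gene.

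Mitochondrial genes were below thermoneutral brown fat nearly as one block. All 36 complex I genes, all 14 of complexes II and III, 15 of 16 of complex IV and 12 of 16 of complex V were lower, with medians of -1.72, -1.78, -1.80 and -1.54. Without replicate 1 the counts were 36, 14, 15 and 13 and the medians -2.08, -2.13, -2.21 and -1.80. With library totals they were 36, 14, 15 and 12, and with adipocyte scaling 31, 12, 13 and 10. Over all genes 27.0% were lower, 34.0% without replicate 1, 12.4% with library totals and 4.96% with adipocyte scaling. Ndufs7, of the complex I core, was at 118, 50.5, 65.0 and 64.2 CPM against 352 to 395 CPM. Sdhb, an iron-sulphur subunit of complex II, was at 323, 101, 166 and 159 CPM against 936 to 984 CPM, and Cox5a at 35.7 to 98.8 CPM against 256 to 285 CPM. Replicate 1 was the highest white fat library for each, and remained under all of BAT_30C.

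A pair of complex V genes went the other way. Atp5g1, one of the genes for the membrane ring, was at 44.1, 34.0, 34.8 and 37.0 CPM against 16.0 to 23.9 CPM (log2 ratio 0.93), and Atpif1, the inhibitor of ATP synthase, at 6.45, 14.2, 14.9 and 14.9 CPM against 5.61 to 7.15 CPM (1.06). Replicate 1 of Atpif1 lay within the brown fat range, and its call was lost without the BAT_30C libraries labelled cold (adjusted p = 0.0606). Both share windows with pseudogenes or neighbours, 21.3% and 23.4%. The summed level of the 13 mitochondrially encoded genes was 28180 to 100816 CPM in WAT_5C, highest in replicate 1, and 270118 to 324696 CPM in BAT_30C. Of them 11 were lower and 2 not told apart, and all 13 were lower without replicate 1, beside 27.0% and 34.0% of all genes. Mitochondrial ribosome genes were lower in 40 of 43 at a median of -0.98, for example Mrps9 at 25.5 to 35.6 CPM against 78.5 to 85.9 CPM. Adipocyte scaling took away the Mrps9 call (adjusted p = 0.143) and left 2 of the 43 lower and 26 within 2-fold. The lower share of this list was then 4.65%, beside 4.96% of all genes.

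Fatty acid oxidation genes were mostly below as well, with 19 of 22 lower, 2 not told apart and Cpt1a higher (median -1.90), and 21 lower without replicate 1 (median -2.27). Acaa2, the last enzyme of the beta-oxidation cycle, was at 330, 67.7, 180 and 135 CPM against 2004 to 2562 CPM, a log2 ratio of -3.74 ± 0.47 (SE, adjusted p = 0.000305). Eci1, which shifts double bonds, was at 57.1 to 195 CPM against 540 to 708 CPM. In the TCA cycle and pyruvate dehydrogenase list 14 of 21 were lower, 1 higher, 2 within 2-fold and 4 not told apart (median -1.91), and 17 were lower without replicate 1 (median -2.31). Beside both lists, 27.0% of all genes were lower, and 34.0% without replicate 1. Idh2, which makes mitochondrial NADPH, was at 51.6 to 101 CPM against 539 to 646 CPM, and Sucla2, a succinyl-CoA ligase subunit, at 86.2 to 339 CPM against 1471 to 1897 CPM.

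The member of that list called higher was Pcx, pyruvate carboxylase, which refills oxaloacetate and serves lipogenesis, at 3409, 1083, 1476 and 1980 CPM against 825 to 1081 CPM, a log2 ratio of 1.13 (adjusted p = 0.0220). The call was lost without BAT_30C replicate 2 (adjusted p = 0.0608), 3 (0.0551) or 4 (0.0603) and without the libraries labelled cold (0.159), and the log2 ratio was 0.73 (adjusted p = 0.00949) without WAT_5C replicate 1. Pdhb, a subunit of pyruvate dehydrogenase, was at 896, 250, 437 and 504 CPM against 508 to 530 CPM, with a log2 ratio of 0.01 (interval -0.75 to 0.77) and of -0.39 without replicate 1. Branched-chain amino acid breakdown had 15 of 21 lower (median -1.08), and 20 of 21 without replicate 1, beside 27.0% and 34.0% of all genes. Bcat1, the cytosolic transaminase, was the single member above, at 2.50 to 3.27 CPM against 0.576 to 1.53 CPM.

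**Figure D4:**
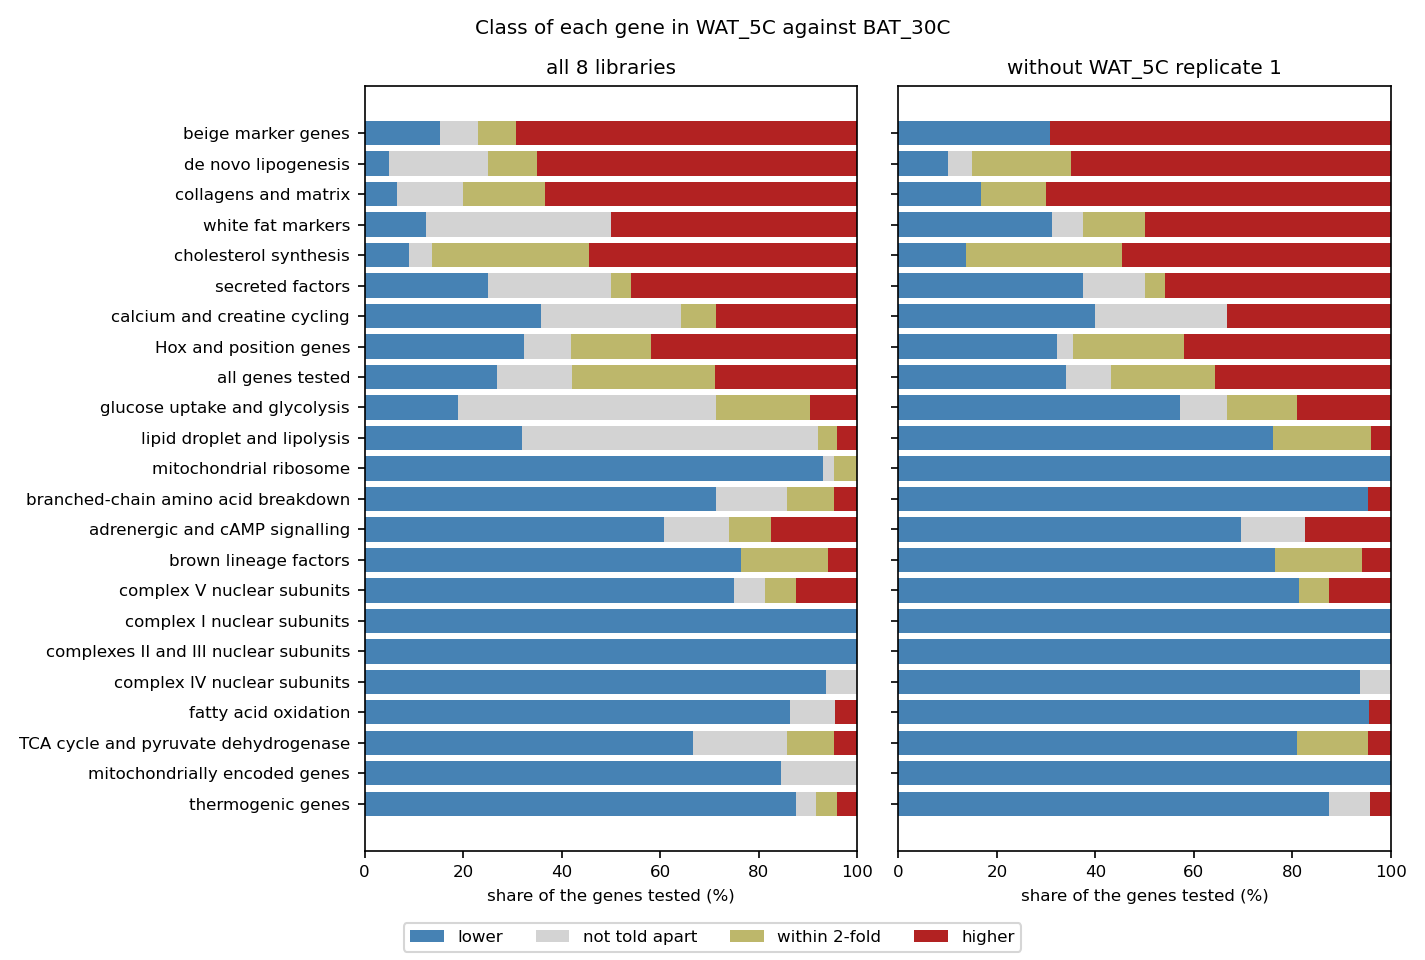
Share of tested genes in each gene list that were lower, not told apart, within 2-fold or higher in WAT_5C against BAT_30C, with all 8 libraries (left) and without WAT_5C replicate 1 (right). All complex I genes are lower in both panels, 13 of 20 lipogenic genes are higher in both, and the row of all genes tested gives the background of 28.9% higher and 27.0% lower on the left.

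Ratios of paralogs within a library need no scaling between libraries, so 10 pairs were compared as log2 ratios of counts. The gene listed as the brown fat type comes first in each pair, and not every pair behaved so here. The ratios still depend on the mix of cells in the tissue, since either gene can also be expressed outside adipocytes, and the part of cell mix was not tested. In 7 pairs the ratio was lower in WAT_5C in all 4 libraries, with an exact two-sided permutation p of 0.0286, the smallest that 70 splits allow, and a Benjamini-Hochberg value of 0.0408 over the 10 pairs. The differences were -6.74 for Fabp3/Fabp4, -6.08 for Cpt1b/Cpt1a, -4.63 for Ucp1/Ucp2, -4.33 for Cidea/Cidec, -2.90 for Plin5/Plin1, -2.68 for Cox7a1/Cox7a2 and -1.72 for Cox8b/Cox8a. The same 7 were separated without replicate 1 (exact permutation p = 0.0286, the smallest that 35 splits allow, adjusted p = 0.0357).

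In the carnitine palmitoyltransferase pair the muscle and brown fat type was lower against the liver type, which had more counts in every library of both groups. Cpt1b was at 0.944, 0.192, 1.17 and 0.462 CPM against 8.55, 16.3, 14.1 and 17.1 CPM, and Cpt1a at 49.8, 72.7, 94.6 and 74.5 CPM against 23.3, 29.4, 28.1 and 20.5 CPM. Their log2 ratio of counts was -5.71, -8.53, -6.33 and -7.32 in WAT_5C and -1.45 to -0.26 in BAT_30C. WAT_30C, at -8.17 on average, was lower still. Cpt1b shares 82.1% of its windows with a read-through transcript, so reads could be split between them.

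The cytochrome oxidase pair Cox7a1/Cox7a2 was at -2.24, -4.31, -1.87 and -2.86 in WAT_5C, -0.18 to -0.05 in BAT_30C and -4.70 on average in WAT_30C. Cidea/Cidec was at -2.98, -4.76, -2.35 and -3.33 against 0.59 to 1.37, and Ucp1/Ucp2 at -0.96, -5.48, 0.52 and -0.84 against 2.40 to 3.35. Replicate 3 was closest to brown fat and replicate 2 furthest in these pairs, and replicate 1 lay between them. The other 3 pairs did not pass. In them the mean ratio was higher in WAT_30C than in BAT_30C, a difference that was not tested. The means were -2.60 against -4.88 for Acsl5/Acsl1, -6.68 against -7.95 for Cox4i2/Cox4i1 and -4.21 against -9.90 for Cox6a2/Cox6a1. Only Acsl5/Acsl1 was higher still in BAT_5C, at -0.55. Between WAT_5C and BAT_30C, Acsl5/Acsl1 differed by 1.15 (exact permutation p = 0.0857), Cox4i2/Cox4i1 by 0.40 (0.171) and Cox6a2/Cox6a1 by 2.03 (0.6). The last rested on BAT_30C replicate 3, without which it was -0.11, and Acsl5/Acsl1 passed without WAT_5C replicate 1 (1.54, exact permutation p = 0.0286, adjusted p = 0.0357). Cox6a2/Cox6a1 was at -6.67, -10.0, -16.3 and -6.58 in BAT_30C replicates 1 to 4. Skeletal muscle markers had geometric means of 42.7, 11.1, 0.107 and 42.2 CPM in these libraries, and the part of muscle in this ratio was not tested.

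**Figure D5:**
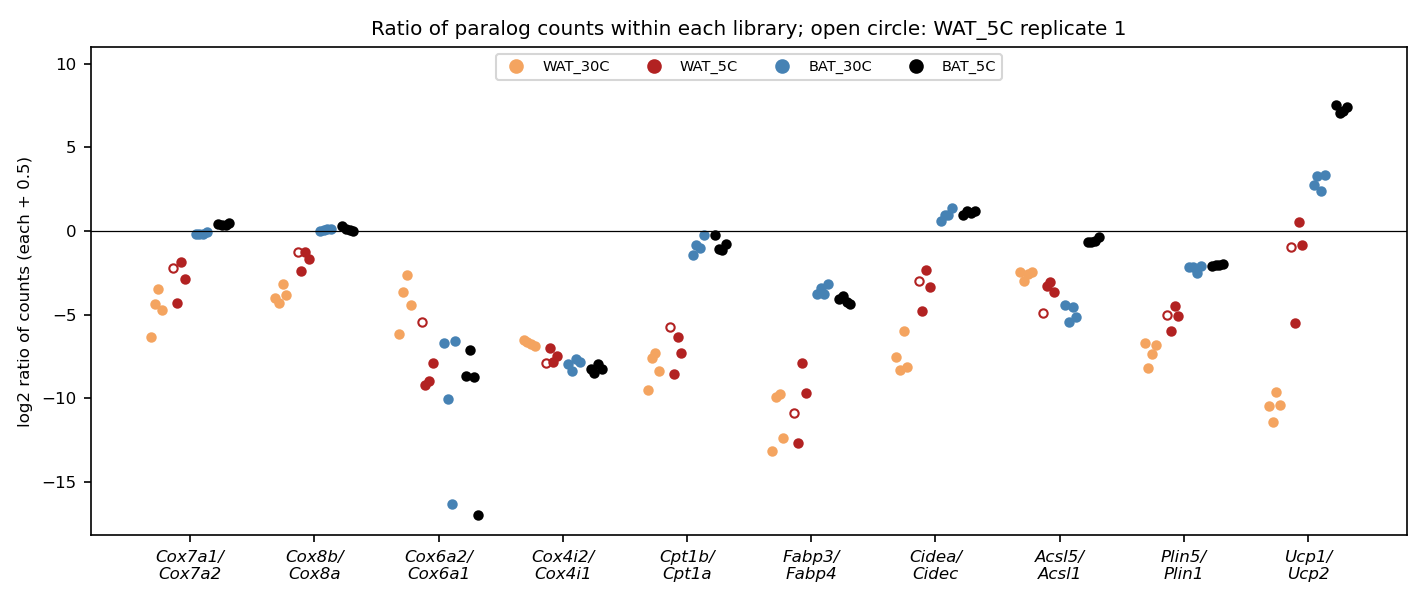
log2 ratio of the counts of 2 paralogs in each library for 10 pairs, each count plus 0.5. Points are libraries, colours are groups and the open circle is WAT_5C replicate 1: 7 ratios of WAT_5C lie under every BAT_30C library, from Fabp3/Fabp4 (-6.74) to Cox8b/Cox8a (-1.72), and Cox6a2/Cox6a1, Cox4i2/Cox4i1 and Acsl5/Acsl1 overlap.

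In the adrenergic and cyclic AMP list 14 of 23 genes (60.9%) were lower, 4 (17.4%) higher and 2 within 2-fold (median -1.09). Over all genes 27.0% were lower and 28.9% higher. Without replicate 1, 16 (69.6%) were lower and 4 (17.4%) higher, beside 34.0% and 35.7% of all genes. Adrb1, the beta-1 receptor, was at 4.70, 3.59, 3.02 and 4.06 CPM against 15.3, 28.2, 25.5 and 22.8 CPM. Adra2a, the alpha-2A receptor that opposes cyclic AMP, was higher at 0.976, 6.43, 3.50 and 5.07 CPM against 0 to 0.202 CPM. Gnas, the stimulatory G protein subunit, was at 6.95 to 8.27 CPM against 37.4 to 108 CPM, but shares 38.1% of its windows with antisense genes. Nr4a1, an early gene of cyclic AMP signalling, was at 13.1 to 19.7 CPM against 53.3 to 159 CPM. Adipocyte scaling left 8 lower and 6 higher in this list.

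Lipid droplet and lipolysis genes mostly could not be placed with all libraries, with 15 of 25 not told apart (median -0.70). Of the list, 8 (32%) were lower, near the 27.0% of all genes, Agpat2 was higher and 1 lay within 2-fold. Without replicate 1, 19 (76%) were lower, beside 34.0% of all genes, and 5 lay within 2-fold (median -1.28). Pnpla2, the lipase of the first step, was at 3249, 666, 1049 and 1136 CPM against 3390 to 4431 CPM, and Lpl, lipoprotein lipase, at 9210, 1986, 2828 and 2707 CPM against 3292 to 3841 CPM. Replicate 1 was far above the other 3 white fat libraries for both. The log2 ratio of Lpl was 0.25 (interval -0.85 to 1.35) with it and -0.49 (adjusted p = 0.0173) without it. That of Pnpla2 was -1.36 (adjusted p = 0.0375) with it and -2.04 (3.07e-05) without it, and the call was lost without any other single library (adjusted p = 0.0584 to 0.0997) and without the BAT_30C libraries labelled cold (0.146). Plin3, a droplet coat protein, varied less, at 43.5 to 58.6 CPM against 150 to 170 CPM, and its call was lost with adipocyte scaling (adjusted p = 0.0546). Agpat2, of triglyceride synthesis, was at 462 to 1260 CPM against 246 to 451 CPM, a log2 ratio of 1.18 (adjusted p = 0.0158). The Agpat2 call was lost under the replicate block (0.0511), without the BAT_30C libraries labelled cold (0.121) and at a threshold of 0.01.

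Of 24 secreted factors, 11 (45.8%) were higher, beside 28.9% of all genes, and 6 (25%) lower, near the 27.0% of all genes (median 0.53). Without replicate 1, 11 were higher and 9 (37.5%) lower, beside 35.7% and 34.0% of all genes. Bmp7, which promotes brown fat formation, was at 4.50, 6.62, 5.94 and 7.07 CPM against 0.263 to 0.775 CPM, and Slit2, a secreted guidance protein, at 1.86, 8.47, 10.3 and 9.56 CPM against 0.331 to 0.469 CPM. Angptl4, an inhibitor of lipoprotein lipase, was lower at 147 to 264 CPM against 656 to 1168 CPM. Vegfa, the vessel growth factor, was at 162 to 344 CPM against 706 to 757 CPM, and Pm20d1, a secreted enzyme that makes N-acyl amino acids, at 4.32 to 13.0 CPM against 56.7 to 69.2 CPM. None of these overlapped.

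Calcium and creatine cycling, proposed as heat sources without UCP1, had 4 of 14 genes higher (28.6%), 5 lower (35.7%), 1 within 2-fold and 4 not told apart, beside 28.9% and 27.0% over all genes. Without replicate 1, 5 of 15 were higher and 6 lower, 33.3% and 40% beside 35.7% and 34.0%, so neither share of the list stood far from all genes. Ckb, the brain-type creatine kinase, was at 39.4, 28.6, 28.0 and 29.5 CPM against 139, 198, 114 and 224 CPM. Slc6a8, the creatine transporter, was at 17.8 to 21.0 CPM against 61.1 to 81.6 CPM, a call lost with adipocyte scaling (adjusted p = 0.0600). Among calcium genes Atp2a3, a reticulum pump also made by lymphocytes, was higher at 74.9, 177, 126 and 129 CPM against 19.6 to 24.6 CPM, lowest in replicate 1, and Ryr3, a release channel, was at 1.33 to 3.07 CPM against 0.0184 to 0.202 CPM. Ckb shares 9.56% of its windows with pseudogenes. Skeletal muscle markers, which several calcium genes also mark, had a geometric mean of 79.0 CPM in replicate 1, 0.339 to 6.20 CPM in the other WAT_5C libraries and 0.107 to 42.7 CPM in BAT_30C, and their part in the list was not tested.

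Matrix genes were mostly higher in white fat, with 19 of 30 (63.3%) higher, 2 lower and 5 within 2-fold (median 1.29). Without replicate 1, 21 (70%) were higher and 5 lower. Over all genes 28.9% were higher, and 35.7% without that library. Col1a1, of fibrillar collagen, was at 612, 670, 775 and 655 CPM against 172, 147, 129 and 127 CPM, and Timp2, a protease inhibitor, at 312 to 463 CPM against 57.0 to 96.5 CPM. Col12a1 was lower, at 6.11 to 12.5 CPM against 51.7 to 78.0 CPM. Markers of fibroblasts and progenitors were higher in 12 of 12, with summed levels of 1992 to 3041 CPM against 752 to 855 CPM, and their part in the matrix result was not tested. Endothelial markers were lower in 11 of 12 (91.7%, beside 27.0% of all genes), such as Tie1 at 40.1 to 70.7 CPM against 163 to 203 CPM, with Vwf higher at 52.4 to 75.0 CPM against 25.6 to 37.1 CPM.

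The 8 largest rises of all by the naming rule were Glycam1, Dsc3, Hoxc10, Marco, Csn3, Fam25c, Hoxa10 and Dapl1, and several of them are genes of epithelium or immune cells. Glycam1, an adhesion molecule of lymph node vessels and mammary gland, was at 11.4, 589, 453 and 477 CPM against 3 counts in all of BAT_30C, a ratio of 28138 (exact 95% interval of counting error 9628 to 136445). Dsc3, an epithelial desmosome gene, was at 6.08, 27.5, 18.0 and 18.6 CPM and at least 1261-fold higher, since BAT_30C had 0 counts against a floor of 3 over the group. Csn3, a milk casein, was at 2.50, 42.4, 62.5 and 45.8 CPM, and Marco, a macrophage scavenger receptor, at 20.1, 78.7, 42.1 and 58.9 CPM. Replicate 1 was lowest in all 4.

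Markers of these cells were higher throughout, with 10 of 10 tested (of 14 listed) for mammary epithelium, 15 of 15 for T and NK cells, 12 of 12 for B cells and 13 of 14 for macrophages. Summed mammary marker levels were 35.2 CPM in replicate 1, 1348 to 1392 CPM in the other WAT_5C libraries and 15.6 to 37.7 CPM in BAT_30C, with the milk gene Wap at 1 count in each group. Summed T and NK markers were 203 and 721 to 849 CPM against 22.9 to 25.9 CPM, and summed B cell markers 828 and 1704 to 2413 CPM against 29.3 to 81.7 CPM. Adipocyte markers summed to 25706 CPM in replicate 1, 6887 to 10885 CPM in the others and 17254 to 23074 CPM in BAT_30C. Neutrophil and mast cell markers were higher in 5 of 8 and lower in 0. Schwann cell and neuron markers were higher in 6 of 9 and lower in 1, and mesothelium markers higher in 2 of 3 and lower in 1. Pericyte and smooth muscle markers had no common direction, with 5 of 10 higher and 3 lower, and 5 and 5 without replicate 1. Over all genes 28.9% were higher and 27.0% lower, and 35.7% and 34.0% without that library. Skeletal muscle markers were lower in 2 of 12, with 10 not told apart, and erythroid markers in 4 of 5. How much these cells take from the adipocyte share of WAT_5C counts was not tested beyond the adipocyte scaling.

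Lower in WAT_5C by the same rule were Magel2, Sgk2, Zic1, Rnf182, Cpne9, Fabp3, Gdf5 and Slc27a2. Magel2, an imprinted gene, had 0 counts in WAT_5C and 4.50 to 8.29 CPM in BAT_30C, at least 746-fold more. Sgk2, a serum-regulated kinase gene, was at 0 to 0.0241 CPM against 8.29 to 18.5 CPM, and Rnf182, a ubiquitin ligase, at 0.0676 to 0.265 CPM against 14.6 to 23.7 CPM. Cpne9, of the copine family, was at 0.0225 to 0.176 CPM against 5.44 to 11.7 CPM. The BAT_5C means of Rnf182, Cpne9 and Magel2 were 1.24, 0.142 and 0.410 CPM beside BAT_30C means of 19.8, 9.24 and 6.99 CPM. Gdf5, a growth factor, was at 0.156 to 0.416 CPM against 12.6 to 17.6 CPM but shares 39% of its windows with an antisense gene.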

How the data were processed

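Mouse adipose tissue RNA was measured by RNA-seq, and the authors deposited 1 table of whole-number counts per gene, not normalized, for 16 libraries. Trim Galore and TopHat are named in the submitters' processing notes, with counter, strand setting and genome build not given in the sources used here. The table holds 46078 gene IDs, of which 45143 were matched to a symbol and 935 were not. Groups came from titles and housing labels. No label states that libraries come from separate mice, so p-values measure the spread between libraries.

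WAT_5C and BAT_30C were compared with edgeR 4.0.16 (R 4.3.3) by the quasi-likelihood F-test on the 8 libraries, without a block, after filterByExpr (minimum count 10, minimum total 15) and TMM scaling, with Benjamini-Hochberg adjustment. TMM factors came from all 16 libraries. The 95% intervals are those of the fitted log2 ratio. Where a group had 0 counts, 3 counts in the whole group served as the floor for a bound on the fold, and ratios on 1 to 3 counts carry exact intervals that cover counting error only. Within-library paralog ratios (0.5 added to each count) were compared by exact two-sided permutation. Alternatives were other scalings, no filter, DESeq2 1.42.0, limma-voom (limma 3.58.1), a threshold of 0.01, all 16 libraries, a replicate block, each library left out and other set rules. The scripts were tested on simulated data. Figures were drawn with Python 3.11.15 and matplotlib 3.10.9.

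The 22 gene lists and 14 cell type lists hold 662 symbols, of which 661 were found. Members, lists and the naming rule were chosen with earlier results of these data known. The rule names a panel of thermogenic, lineage, white fat and lipid genes, the 8 largest rises and 8 largest falls (adjusted p under 0.05, at least 5 CPM in the higher group, no overlap, no predicted gene or receptor segment), the same among brown-side genes, up to 4 members of each list in each direction by adjusted p, members within 2-fold, and the paralog pairs. Shared sequence is the share of 50-base windows of a gene's transcripts also found in another gene of the GENCODE M21 annotation. Of 12 replicate pairs, none had counts as close as sampling noise, so no library was counted as deposited more than once.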

Additional observations from a re-analysis of the deposited data

Results flagged for a closer look

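Of 280 groups of 4 libraries examined, 26 had 1 library whose gap to the nearest other took more of the group's range than Dixon's 95% critical value allows, and chance alone gives about 1 in 20. WAT_5C replicate 1 was the highest of its group in 14 of them. These were Adrb3 at 656 CPM (next 247), Ebf2 at 36.6 (17.3), Hoxc10 at 24.0 (11.4), Car4 at 63.3 (18.9), Adipoq at 1810 (838), Hephl1 at 22.0 (11), Scd3 at 151 (20.1), Rims4 at 24.0 (10.3), Cpne9 at 0.176 (0.0451), Lpl at 9210 (2828), Ckb at 39.4 (29.5), Fdft1 at 78.1 (50.6) and Zic4 at 0.016 CPM (0). The median of the cholesterol synthesis list was the last, at 234% of the BAT_30C mean against 154% in the next library. The same library was the lowest for Atpif1, at 6.45 CPM against 14.2 CPM.

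Among the other WAT_5C libraries, replicate 2 was lowest for Tbx5 at 1.15 CPM and replicate 3 highest for Rnf182 at 0.265 CPM. In BAT_30C, replicate 1 was lowest for P2rx5 at 91.4 CPM and highest for Retn at 197, Srebf1 at 465 and Dapl1 at 0.0184 CPM. BAT_30C replicate 2 was lowest for Glycam1 at 0 CPM and highest for Csn3 at 0.129 and Fam25c at 0.0184 CPM. BAT_30C replicate 3 was highest for Hoxa10 at 0.0202 and Atpif1 at 7.15 CPM. The flags of Glycam1, Csn3, Fam25c, Dapl1, Hoxa10 and Zic4 rest on a few counts.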

How the results depend on the processing

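Of 2683 values of 122 named genes under alternatives, 2523 kept their direction and side of the threshold, 66 lost the call, 38 gained one and 56 changed sign, and of 204 gene counts 157 moved by less than 1.5 times. Library totals gave 8996 higher and 2192 lower genes, with 143 brown-side genes higher, 227 within 2-fold and 11 white-side genes within 2-fold. Adipocyte scaling gave 8322 higher, 866 lower and 1458 within 2-fold, with 158 brown-side genes higher, 404 lower and 288 within, and 5 white-side genes lower and 5 within. With replicate 1 also left out, chosen after seeing the data, library totals gave 11521, 2702 and 2704, with 150 brown-side genes higher, 177 within and 12 white-side genes within. Adipocyte scaling then gave 14072, 1133 and 1802, with 261, 478 and 337 brown-side genes, and 6 white-side genes lower and 8 within. Without the BAT_30C libraries labelled cold, 3647 genes were higher and 2946 lower, with 49 brown-side genes higher and 52 within, and 7 white-side genes lower and 13 within. The 2-fold and 1 CPM rule gave 180, 2101 and 604 brown-side and 3150, 94 and 451 white-side genes. With limma-voom, 73 brown-side genes lay within 2-fold and 22 white-side genes were lower, and with all 16 libraries but replicate 1 these were 66 and 23. A threshold of 0.01 gave 7 white-side genes lower. Leaving out 1 library gave 8 to 22 of these, and 74 to 159 brown-side genes within 2-fold.

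The replicate block gave 4579 higher, 4328 lower and 5480 within 2-fold. Same-numbered libraries had residual correlations of 0.16, 0.04, 0.21 and -0.11, and since the groups were housed at different temperatures they share only a number. Under the block 4 of the 122 named genes lost their call, Ucp1, Dio2, Agpat2 and Gk (adjusted p = 0.0579, 0.126, 0.0511 and 0.0526), and Car4 gained one (0.0368). Lower calls in the thermogenic list went from 21 to 16, and higher calls from 1 to 0 in the lipid droplet list and from 2 to 1 in the glycolysis list.

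Without 1 library, Ucp1/Ucp2 ranged from -5.37 to -3.37, and without any 1 of BAT_30C (-4.81 to -4.50) its adjusted p was 0.0816. Acsl5/Acsl1 ranged from 0.93 to 1.54 and Cox6a2/Cox6a1 from -0.11 to 3.14. With adipocyte scaling, then also without replicate 1, signs changed for Irf4 (0.65, 0.91), Zfp516 (0.96, 1.20), Ehmt1 (0.94, 1.20), Adipoq (0.18, 0.22), Acacb (0.24, 0.30), Mlxipl (0.0723, 0.22), Slc2a4 (0.0119, 0.0371), Pfkl (0.26, 0.37) and Fdft1 (0.0884, 0.24), and for Hmgcs1 in the second (0.0554). With library totals in the same order they changed for Irf4 (0.22, 0.35), Zfp516 (0.52, 0.62) and Ehmt1 (0.50, 0.62). Under limma-voom the values were -0.0569 for Acot11, -0.41 for Adrb3, -0.24 for Pdhb, -0.39 for Lpl, 0.00909 for Zfp516 and 0.0146 for Ehmt1. Under the block they were -0.19, -0.14, -0.14, -0.0574 and, for Zfp516, 0.0069. In the fit of all 16 libraries but replicate 1 they were -0.10, -0.52, -0.39 and -0.49. Zfp516 was 0.0291 with RLE factors, 0.0316 without mitochondrially encoded genes and 0.0266 in DESeq2, and Acot11 -0.00566 without the libraries labelled cold. Leaving out 1 library gave -0.0566 to 0.0695 for Zfp516, -0.52 to 0.29 for Adrb3, -0.257 to 0.445 for Acot11, -0.386 to 0.239 for Pdhb and -0.491 to 0.481 for Lpl. The causes were not tested.

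Values here come from 4 libraries a group, with 1 that goes against its label. Tissue and temperature cannot be told apart, and neither can fewer adipocytes and less RNA per adipocyte. Strand use is unknown, so genes with antisense or duplicate partners are uncertain.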
